A study of Mus musculus with 9 samples.

Results

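The 10 genes studied here encode T cell surface receptors that hold cells together or carry a costimulatory signal, and were measured in mouse thymus and thymic tumors: Cd2, Cd5, Cd6, Cd27, Cd28, Cd44, Cd69, Thy1, Ptprc and Icos. They were chosen by name, as all probe sets whose single gene symbol in the platform's gene table is one of these, which gave 17 probe sets for 10 genes, of 34945 probe sets with 1 symbol for 18193 genes. Total RNA of 3 groups was hybridised to Affymetrix mouse genome arrays, 3 arrays a group: resistant tumor tissue, which the series title calls XIST resistant thymus tumor, tumor tissue, which it calls thymus tumor, and normal thymus tissue. The labels used here give no strain, age, sex, genotype, transgene or treatment for any group. Nothing in them tells whether each array stands for its own animal, so the p-values rest on the variation among these 9 arrays, part or all of which may be technical. XIST is the long non-coding RNA that coats and silences an X chromosome, and the labels do not say how the resistance was obtained.

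A T cell reads antigen through the T cell receptor and its CD3 chains, and a second group of surface proteins sets how strongly that contact is made and answered. Cd2 binds CD48 on the partner cell in mice. Cd5 and Cd6 are scavenger receptor proteins that can dampen receptor signals, and Cd6 binds Alcam. Cd28 and Icos are the costimulatory receptors for Cd80 and Cd86 and for Icosl, and Cd27 is the tumor necrosis factor receptor family member that binds Cd70. Cd44 is the hyaluronan receptor, Cd69 an early activation antigen that holds cells in tissue, Thy1 a lipid-anchored surface protein of thymocytes, and Ptprc (CD45) the phosphatase that keeps Lck active. In the thymus, Cd44 marks the earliest progenitors, while Cd2, Cd5, Cd6, Cd27, Cd28 and Cd69 come up as thymocytes mature or are selected.

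The 300 bases around the start of 3 of these genes are shown because they belong to genes that differed between tumors and normal thymus in opposite directions: Cd5 and Cd27, which were lower in both kinds of tumor, and Cd44, which was higher. The sequences are RefSeq's on GRCm38.p6, from 250 bases before to 50 after the start, and 4 of the 10 members had an entry. Capitals mark the E-box CANNTG and the letters AGGAAG, a core bound by ETS proteins, searched on both strands, and no E-box overlapped AGGAAG in any of them. All 3 windows lie on the minus strand: chr19:10738925-10739224 for Cd5, chr6:125236978-125237277 for Cd27 and chr2:102901616-102901915 for Cd44.
Cd5: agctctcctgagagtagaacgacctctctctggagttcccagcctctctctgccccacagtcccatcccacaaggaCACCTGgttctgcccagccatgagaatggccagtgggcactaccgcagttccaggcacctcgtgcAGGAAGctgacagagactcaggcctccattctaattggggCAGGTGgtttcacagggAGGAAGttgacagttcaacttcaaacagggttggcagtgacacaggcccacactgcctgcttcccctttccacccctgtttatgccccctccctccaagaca
Cd27: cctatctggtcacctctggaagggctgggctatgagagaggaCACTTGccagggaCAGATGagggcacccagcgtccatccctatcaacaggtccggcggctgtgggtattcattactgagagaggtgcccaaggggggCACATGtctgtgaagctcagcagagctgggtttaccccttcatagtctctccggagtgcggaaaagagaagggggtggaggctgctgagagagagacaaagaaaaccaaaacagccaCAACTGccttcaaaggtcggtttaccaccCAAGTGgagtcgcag
Cd44: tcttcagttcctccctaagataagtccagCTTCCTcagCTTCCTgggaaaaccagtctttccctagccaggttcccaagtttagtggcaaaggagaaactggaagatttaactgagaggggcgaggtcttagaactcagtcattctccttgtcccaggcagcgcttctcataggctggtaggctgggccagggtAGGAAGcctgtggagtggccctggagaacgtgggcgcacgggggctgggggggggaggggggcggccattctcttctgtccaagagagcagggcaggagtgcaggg
The Cd5 window held 2 E-boxes and 2 AGGAAG, the Cd27 window held 5 E-boxes and 0 AGGAAG, and the Cd44 window held 0 E-boxes and 3 AGGAAG. Ptprc, the other member with an entry and not called, had 2 windows that are not shown. The first held 1 E-box and 3 AGGAAG, and the second held 3 E-boxes and 1 AGGAAG. A link between these matches and the direction of change was not tested. Of all 32851 windows of this length, 72.3% held the E-box and 35.4% held AGGAAG, and a match is a string of letters, not a bound site.

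The deposited values are MAS5 signals on a linear scale, and the median signal of an array lay between 13.9 and 25.8. The arrays fell into 2 sets that the labels do not name: 4 arrays (resistant tumor 1 and 2, tumor 1 and normal 1) had almost no signal on the 24 rows of poly-A spike-in controls, with means of 2.27 to 3.10, and the other 5 had means of 141 to 237. The array medians followed this split, at 23.6 to 25.8 without and 13.9 to 17.8 with spike-in signal, and both sets held every group. In the set without spike-in signal, tumor 1 and normal 1 are single arrays, and in the set with it, resistant tumor 3 is, so the values within sets are given as sizes. The 3′ to 5′ ratio of the Actb control probes was 1.96, 1.98 and 2.64 in resistant tumors, 1.92, 3.16 and 1.91 in tumors and 1.63, 1.91 and 1.91 in normal thymus. That of the Gapdh control probes was 0.942, 0.969 and 1.03 in resistant tumors, 0.939, 1.02 and 0.924 in tumors and 1.205, 1.04 and 1.04 in normal thymus, with every normal array above every tumor array. The part of RNA quality in the results was not tested.

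Of the 10 receptors, 8 were lower and 1 was higher in tumors than in normal thymus, and the same counts held for resistant tumors against normal thymus. Cd2, Cd5, Cd6, Cd27, Cd28, Cd69, Icos and Thy1 were lower and Cd44 was higher in both comparisons, while Ptprc passed the test in neither. A gene was called when its adjusted p, from limma with Benjamini-Hochberg adjustment over 11671 tested genes, was under 0.05. Of all tested genes, 42.4% were called in tumors against normal thymus, 19.1% lower and 23.3% higher, and 43.3% in resistant tumors against normal thymus, 20.2% lower and 23.1% higher. The median log2 change over the members was -3.57 in tumors and -3.09 in resistant tumors, beside medians of 0.05 and 0.06 over all tested genes. All 10 members had no overlap between tumors and normal thymus, as did 55.3% of tested genes, and all 10 had none between resistant tumors and normal thymus, as did 54.6%. The 2 comparisons share the normal arrays, so they are not independent of each other. Cd2, Cd6, Cd28 and Icos reached the 3 arrays that the filter on low signal asks for only with their normal arrays, so they had to be higher there, and their calls and the medians over all members are a description. Of the 6 other members, 4 were lower (Cd5, Cd27, Cd69 and Thy1), Cd44 was higher and Ptprc was not called.

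**Figure D1:**
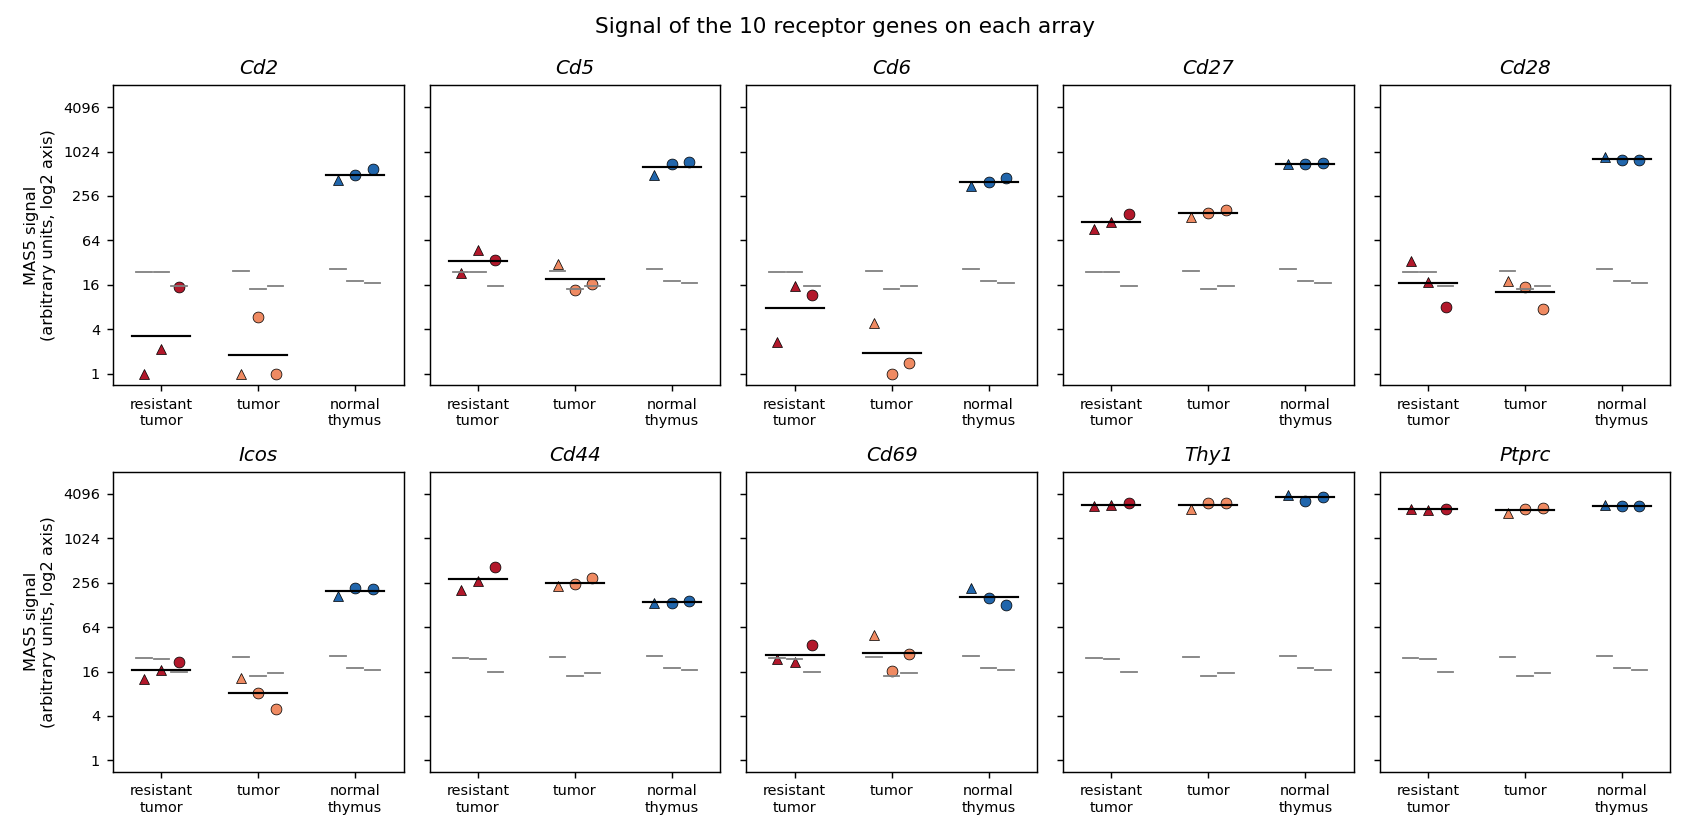
Signal of the 10 receptors on each array, on a log axis, with resistant tumor left of tumor and normal thymus on the right. Triangles are arrays without and circles arrays with spike-in signal, black bars are means of log2 signal, grey ticks are array medians, and values under 1 are drawn at 1. Cd2 and Cd6 lie under the array median on all 6 tumor arrays, while Thy1 and Ptprc lie far above it on all 9.

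Cd2, the adhesion receptor, had signals of 0.257, 2.17 and 15.03 in resistant tumors, 0.536, 5.93 and 0.963 in tumors, and 415, 499.6 and 587 in normal thymus. Every tumor array of either kind was under its own array median, so only a bound can be given. Cd2 was at least 23.9-fold lower in resistant tumors than in normal thymus (adjusted p = 0.000336) and at least 28.4-fold lower in tumors (adjusted p = 0.00017). The array medians used for these bounds, not the lowest tumor signals, set their size. In bulk tissue, fewer cells of a type and less RNA per cell cannot be told apart, here and in all that follows.

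The paired genes Cd5 and Cd6, neighbours on chromosome 19 in the RefSeq order of GRCm38.p6, were both lower. Cd5 had 23.0, 47.9 and 34.4 in resistant tumors, 30.7, 13.6 and 16.4 in tumors and 493, 687 and 736 in normal thymus. The lowest normal array was about an order of magnitude above the highest tumor array. Cd5 fell by 4.23 ± 0.35 on the log2 scale in resistant tumors (SE, n = 3 arrays each; limma adjusted p = 1.59e-05), 18.7-fold lower, and by 5.05 ± 0.35 in tumors (adjusted p = 5.23e-06), 33.2-fold lower. Within the arrays without spike-in signal the Cd5 change was -3.89 in resistant tumors and -4.01 in tumors, and within those with it -4.37 in resistant tumors and -5.57 in tumors. Cd6 had 2.67, 15.6 and 11.6 in resistant tumors, 4.81, 0.783 and 1.38 in tumors and 349, 391 and 453 in normal thymus. No tumor array of either kind reached its array median for Cd6. It was at least 19.1-fold lower in resistant tumors (adjusted p = 0.000249) and at least 22.7-fold lower in tumors (adjusted p = 3.65e-05).

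Among members measured on both sides, Cd28 had the largest change. Its standing probe set, the brightest that passed the filter, gave 33.9, 17.4 and 8.01 in resistant tumors, 18.1, 15.1 and 7.48 in tumors and 864, 787 and 798 in normal thymus. All 3 normal arrays were far above all 6 tumor arrays. The log2 change was -5.60 ± 0.48 in resistant tumors (48.6-fold lower, limma adjusted p = 2.15e-05) and -6.01 ± 0.48 in tumors (64.3-fold lower, adjusted p = 1.39e-05). Only 1 of 3 arrays in each tumor group reached its array median, and with 50 added before log2 the changes were -3.65 in resistant tumors and -3.77 in tumors. Within the arrays without spike-in signal the Cd28 change was -5.15 in resistant tumors and -5.58 in tumors, and within those with it -6.63 in resistant tumors and -6.22 in tumors. The second Cd28 probe set gave 34.6, 17.7 and 4.65 in resistant tumors, 14.1, 9.95 and 5.48 in tumors and 1031, 835 and 757 in normal thymus. In a fit of 45037 probe sets with no filter, where 18.5% were called in either comparison with normal thymus, this probe set was 61.1-fold lower in resistant tumors (adjusted p = 0.000664) and at least 49.7-fold lower in tumors (adjusted p = 0.000399).

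Icos, next but one to Cd28 on chromosome 1, was lower on its standing probe set, with 12.9, 16.8 and 21.6 in resistant tumors, 13.1, 8.31 and 5.03 in tumors and 167, 217 and 209 in normal thymus. Normal arrays did not overlap with the others. The log2 change was -3.56 ± 0.36 in resistant tumors (11.8-fold lower, adjusted p = 5.56e-05), and Icos was at least 11.3-fold lower in tumors (limma adjusted p = 1.19e-05), where no array reached its median, against 1 of 3 arrays in resistant tumors. With 50 added before log2 the Icos change was -1.88 in resistant tumors. The second Icos probe set was at least 4.41-fold lower in resistant tumors (adjusted p = 0.0013) and at least 5.24-fold lower in tumors (adjusted p = 0.000276). The remaining Icos probe set was called in tumors, at least 4.70-fold lower (adjusted p = 0.00769), and not in resistant tumors (limma log2 change -2.63, adjusted p = 0.101). Its signals were 11.7, 14.8 and 13.5 in resistant tumors, 15.2, 1.07 and 0.538 in tumors and 74.1, 90.0 and 82.7 in normal thymus.

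Ctla4, the inhibitory receptor between Cd28 and Icos on the chromosome, is no member and was looked at for its place after its values were seen. Its signals were 219.6, 71.8 and 118 in resistant tumors, 43.0, 34.8 and 53.0 in tumors and 55.7, 50.2 and 45.5 in normal thymus. The resistant tumor arrays were all above the others, and tumor and normal arrays overlapped. It rose by 1.29 ± 0.35 on the log2 scale in resistant tumors against normal thymus (limma adjusted p = 0.0148), a call lost without normal array 3 (1.22, adjusted p = 0.0513), and the change in tumors was -0.23 (adjusted p = 0.645). Against tumors, resistant tumors had a log2 change of 1.52 ± 0.35 (adjusted p = 0.162), which passed the test without resistant tumor array 2 (1.91, adjusted p = 0.0378).

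Cd27, the receptor for Cd70, kept a level above the array median in all 9 arrays and still changed sharply. It had 90.2, 115 and 147 in resistant tumors, 134, 149 and 166 in tumors and 689, 696 and 725 in normal thymus. The normal arrays were tightly grouped, and both kinds of tumor lay well under them. Cd27 was 6.11-fold lower in resistant tumors (log2 change -2.61 ± 0.17, limma adjusted p = 4.63e-06) and 4.71-fold lower in tumors (log2 change -2.24 ± 0.17, adjusted p = 1.05e-05).

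Cd69, the early activation antigen, had 24.0, 21.7 and 36.9 in resistant tumors, 49.9, 16.4 and 27.4 in tumors and 218, 160.1 and 129 in normal thymus. The spread within each group was wide, and the normal arrays were above all the others. It was 6.16-fold lower in resistant tumors (log2 change -2.62 ± 0.39, limma adjusted p = 0.0006) and 5.84-fold lower in tumors (log2 change -2.55 ± 0.39, adjusted p = 0.000709). Within the arrays without spike-in signal the Cd69 change was -3.26 in resistant tumors and -2.12 in tumors, and within those with it -1.96 in resistant tumors and -2.76 in tumors. With 50 added before log2, which shrinks the change of dim genes, Cd69 had -1.48 in resistant tumors and -1.43 in tumors, and Cd5 had -3.01 in resistant tumors and -3.28 in tumors.

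Cd44, the hyaluronan receptor, was the only member that rose. It had 206, 266 and 423 in resistant tumors, 230.1, 248 and 293 in tumors and 136, 135 and 143 in normal thymus. All 6 tumor arrays were above all 3 normal arrays, and resistant tumor 3 was the highest. Cd44 was 2.06-fold higher in resistant tumors (log2 change 1.05 ± 0.23, limma adjusted p = 0.00499) and 1.85-fold higher in tumors (log2 change 0.89 ± 0.23, adjusted p = 0.0112). Within the arrays without spike-in signal, the log2 changes were 0.78 in resistant tumors and 0.76 in tumors, and within those with spike-in signal 1.61 in resistant tumors and 0.96 in tumors. With array medians set equal, neither change was called (0.98 in resistant tumors, adjusted p = 0.174, and 1.08 in tumors, adjusted p = 0.127).

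Cd44 has 4 probe sets. The second, with 144, 187 and 364 in resistant tumors, 166, 189 and 236 in tumors and 104, 115 and 108 in normal thymus, did not overlap between tumors and normal thymus, and was not called in the fit over all probe sets (limma log2 change 0.97 in resistant tumors, adjusted p = 0.0647, and 0.83 in tumors, adjusted p = 0.108). The other two were dim: one reached the array median on 3 of 9 arrays and had log2 changes of 0.62 in resistant tumors and 0.57 in tumors (limma adjusted p = 0.456 and 0.511), and one, the only member probe set that did not pass the filter, stayed at or under 5.04 on every array. Stromal cells also make Cd44, and the 7 fibroblast markers had a summed signal of 2706 to 6625 in resistant tumors, 2275 to 5283 in tumors and 1101 to 1197 in normal thymus. Resistant tumor 3 had the highest sum and the highest Cd44 signal. Of these 7 genes, 4 were higher and 1 lower in resistant tumors, and 3 were higher in tumors, and none lay under the array median throughout any group. Over all tested genes, 23.1% were higher and 20.2% lower in resistant tumors, and 23.3% were higher in tumors. Their part in the Cd44 result was not tested.

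Thy1 and Ptprc, the markers of thymocytes and of all leukocytes, stayed among the brightest features of every array. Thy1 had 2771, 2853 and 3062 in resistant tumors, 2542, 3109 and 3107 in tumors and 4014, 3308 and 3697 in normal thymus. The normal arrays were above the others with a narrow gap. Its signal was above that of 99.4% to 99.9% of probe sets on each array. Thy1 fell by 0.34 ± 0.11 on the log2 scale in resistant tumors (1.27-fold lower, limma adjusted p = 0.0273) and by 0.33 ± 0.11 in tumors (1.26-fold lower, adjusted p = 0.0297). Leaving out 1 array ended the call in resistant tumors for resistant tumor 1 (-0.31, adjusted p = 0.0765), resistant tumor 2 (-0.33, adjusted p = 0.0723), normal 1 (-0.27, adjusted p = 0.089) and normal 3 (-0.33, adjusted p = 0.0796), and in tumors for tumor 1 (-0.24, adjusted p = 0.0766), normal 1 (-0.27, adjusted p = 0.1) and normal 3 (-0.33, adjusted p = 0.0841). Within the arrays without spike-in signal the Thy1 change was -0.51 in resistant tumors and -0.66 in tumors, and within those with it -0.19 in resistant tumors and -0.17 in tumors.

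Ptprc had 2584, 2449.6 and 2551 in resistant tumors, 2290.4, 2556 and 2599 in tumors and 2892, 2806 and 2792 in normal thymus. Normal arrays were above the others, and no test was passed: the log2 change was -0.16 ± 0.08 in resistant tumors (limma adjusted p = 0.116, 95% interval -0.34 to 0.01) and -0.19 ± 0.08 in tumors (adjusted p = 0.0707, interval -0.36 to -0.02). Fitting the 2 array sets as a block brought the tumor change past it (adjusted p = 0.0312). Both passed after quantile normalization, at -0.34 in resistant tumors (adjusted p = 0.0036) and -0.31 in tumors (adjusted p = 0.00514). The second Ptprc probe set was much dimmer, with 177, 158 and 94.9 in resistant tumors, 140.4, 72.4 and 77.2 in tumors and 329.7, 177 and 154 in normal thymus, and was not called in the fit over all probe sets (limma log2 change -0.59 in resistant tumors, adjusted p = 0.383, and -1.17 in tumors, adjusted p = 0.0705).

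**Figure D2:**
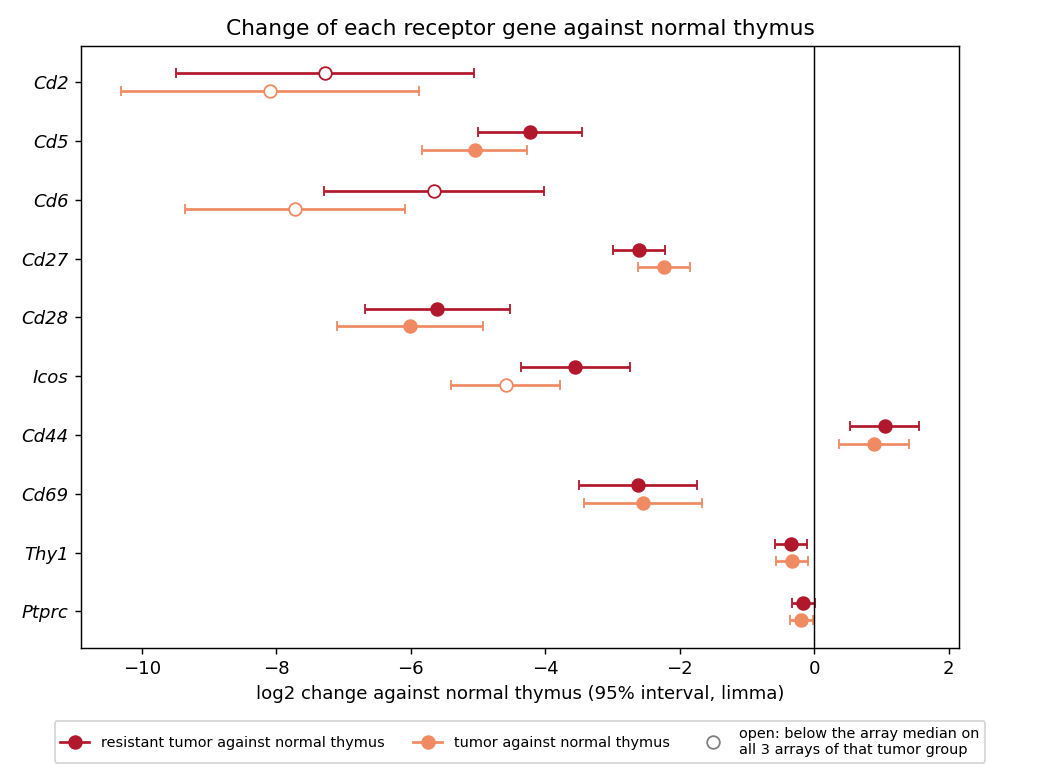
Log2 change of each receptor against normal thymus with its 95% interval, for resistant tumors and for tumors. Open markers are genes that reached the array median on none of that tumor group's arrays, for which the fitted value depends on the floor of 1, and Cd44 is the one gene right of 0.

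**Figure D3:**
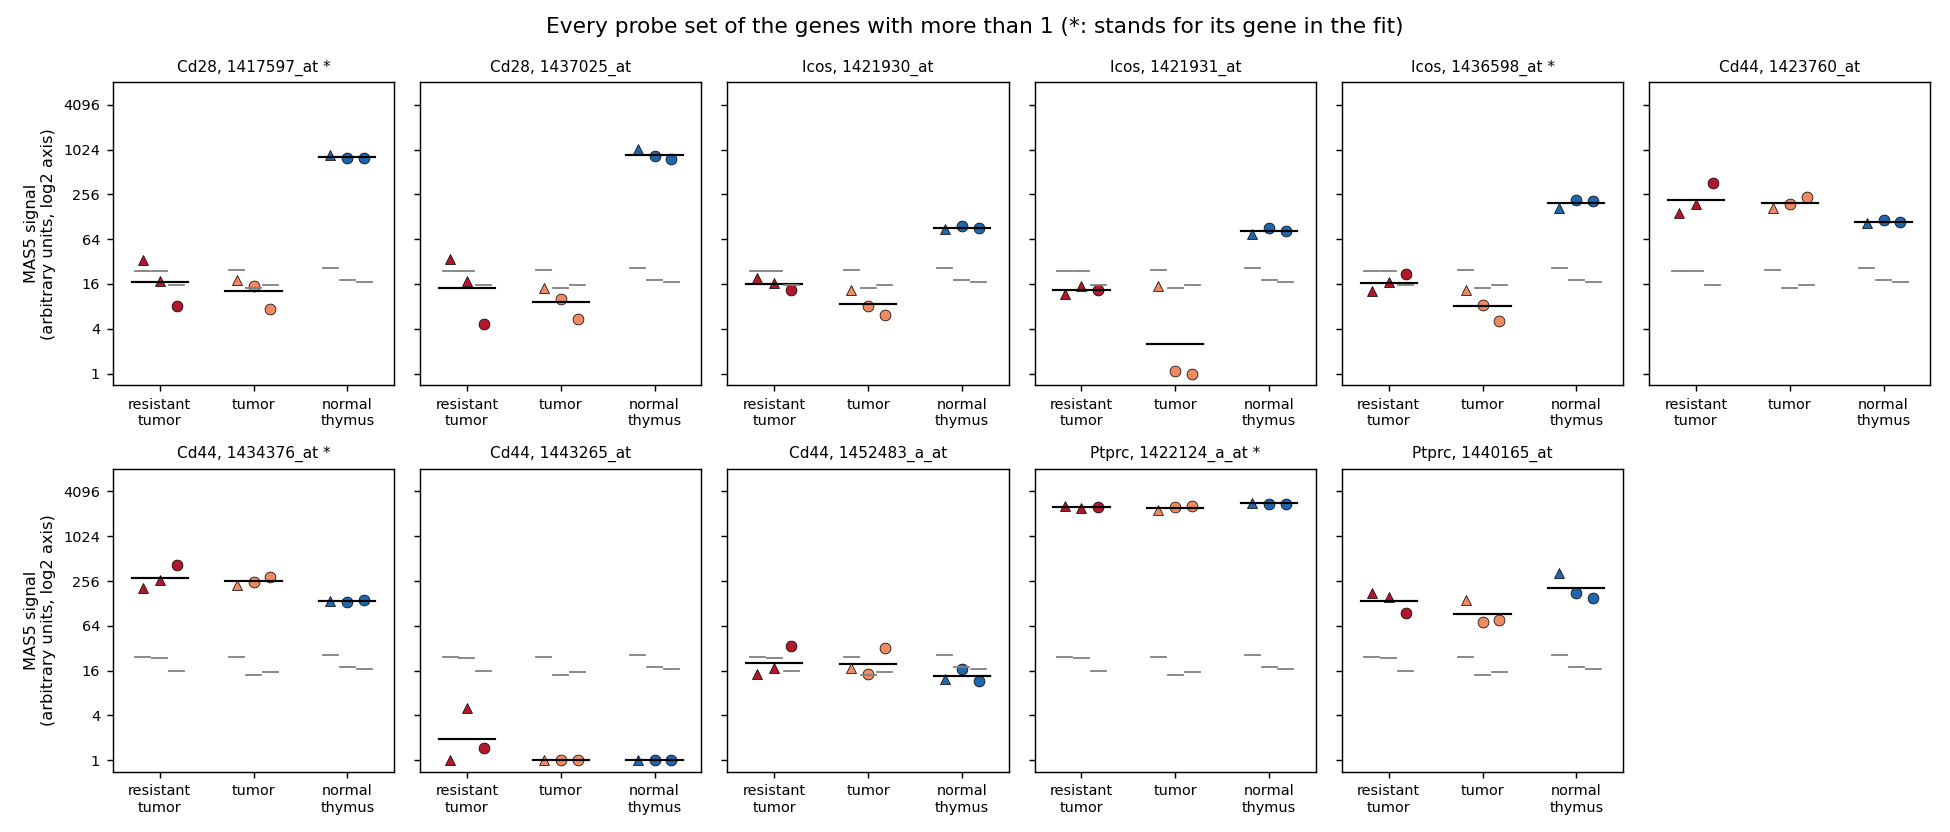
Signal of every probe set of the 4 receptors with several, on a log axis, by group, with resistant tumor first and normal thymus last. The 2 Cd28 and the 3 Icos probe sets lie higher in normal thymus, and the 2 brighter Cd44 probe sets lie lower there.

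Between resistant tumors and tumors, 0 of the 10 receptors passed the test, as did 0.36% of all tested genes, and in 0 did the 2 groups not overlap, against 10.4% of tested genes. At an unadjusted p under 0.05, 3 members passed (Cd5, Cd6 and Icos), as did 7.23% of all tested genes, and the members' median log2 change was 0.28, beside -0.02 over all genes. Cd5 had a log2 change of 0.82 (95% interval 0.05 to 1.60, limma adjusted p = 0.646), and Icos had 1.03 (0.22 to 1.84, adjusted p = 0.494) with tumors under the array median, so no fold is given. The intervals were -0.76 to 0.01 for Cd27, -0.68 to 1.49 for Cd28, -0.36 to 0.67 for Cd44 and -0.96 to 0.81 for Cd69. For the bright pair they were narrower, -0.25 to 0.23 for Thy1 and -0.14 to 0.20 for Ptprc. Cd2 and Cd6 were under the array median in both groups, so that no fold is given. In the fit over all probe sets, 0 of the 17 member probe sets were called, as were 0.0178% of all. Within the arrays with spike-in signal, where resistant tumor 3 alone stands against tumors 2 and 3 and the lone array is assumed to vary like the other groups, 4 members were called higher in limma, as were 4.74% of all tested genes in either direction. These were Cd6 (adjusted p = 0.00354), which is under the array median in both groups, Cd5 (log2 change 1.21, adjusted p = 0.0145), Icos (1.74, adjusted p = 0.0295) and Cd44 (0.65, adjusted p = 0.0463). Within the arrays without spike-in signal the log2 change was 0.11 for Cd5, 0.17 for Icos and 0.02 for Cd44.

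The T cell receptor markers did not move as most members did. Of 8 fixed T cell markers, 6 were tested, and 2 were lower and 0 higher in both kinds of tumor: Cd247, the zeta chain, with log2 changes of -2.04 in resistant tumors and -1.85 in tumors, and Zap70, the kinase that binds it, with -1.06 and -0.71 (limma adjusted p of 1.35e-06 to 0.00348). Among all tested genes, 20.2% were lower in resistant tumors and 19.1% in tumors. Cd3d, Cd3e, Cd3g and the adapter Lat were not called, with log2 changes of -0.30, -0.04, 0.10 and -0.22 in resistant tumors and -0.10, 0.19, 0.24 and -0.11 in tumors. These signs were not stable: with array medians set equal the tumor changes of Cd3d and Lat were 0.088 and 0.073, and after quantile normalization that of Cd3g in resistant tumors was -0.029. Cd3e had 1103, 1670.3 and 1344 in resistant tumors, 1544, 1679 and 1541 in tumors and 1439, 1252 and 1489.9 in normal thymus. Arrays of the tumor group were all above the normal ones by a narrow gap, and the resistant tumor arrays overlapped with both groups. The summed signal of the 6 markers was 6938 to 9298 in resistant tumors, 8420 to 9785 in tumors and 9379 to 10201 in normal thymus.

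Other adhesion, costimulatory and inhibitory receptors mostly fell too. Of 38 listed, 28 were tested: in resistant tumors 4 were higher, 16 lower and 8 not called (median log2 change -0.85), and in tumors 2 were higher, 19 lower and 7 not called (median -1.16). Among all tested genes, 23.1% were higher and 20.2% lower in resistant tumors, and 23.3% and 19.1% in tumors. Cd96, a receptor for Pvr, had 7.35, 5.48 and 3.72 in resistant tumors, 5.97, 3.84 and 4.42 in tumors and 398, 445 and 409.99 in normal thymus. It was at least 20.1-fold lower in resistant tumors and at least 23.9-fold lower in tumors. Itga4, the integrin chain that binds Vcam1, had a log2 change of -4.53 in resistant tumors and was at least 25.2-fold lower in tumors. Cd52, a small lipid-anchored leukocyte antigen, had -4.05 in resistant tumors, and Slamf1, a self-binding receptor, was at least 16.7-fold lower in tumors. Cd96, Itga4 and Slamf1 passed the filter on low signal only with their normal arrays, as did Pdcd1, which was lower in both and is named after its values were seen. Their falls are a description, and the counts of lower genes include them. Higher in both were Cd82, a tetraspanin (1.66 in resistant tumors and 1.63 in tumors), and the integrin chain Itgb1 (0.78 and 0.89). Ctla4 and Cd24a (0.34) were higher in resistant tumors, the Cd24a call being lost without resistant tumor 2 (0.31, adjusted p = 0.0726), normal 2 (0.25, adjusted p = 0.0928) or normal 3 (0.32, adjusted p = 0.071), and that of Itgb1 without normal 2 (0.69, adjusted p = 0.0507).

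The ligands of these receptors were called in both directions. Of 25 listed, 18 were tested: 5 were higher, 7 lower and 6 not called in resistant tumors (median log2 change -0.68), and 5 were higher, 9 lower and 4 not called in tumors (median -0.89). Beside them, 23.1% of all tested genes were higher and 20.2% lower in resistant tumors, and 23.3% and 19.1% in tumors. The higher ligands lay near that share. Vcam1, the ligand of the Itga4 integrin, had log2 changes of -4.22 in resistant tumors and -4.57 in tumors. Cd86, a ligand of Cd28, was at least 2.77-fold lower in resistant tumors and at least 3.28-fold lower in tumors. Cd86, like Cdcp1 below, passed the filter on low signal only with its normal arrays, so these falls are a description. Cd48, the mouse ligand of Cd2, had -2.76 and -2.65, the tumor value being named after it was seen. Cdcp1, listed as a Cd6 ligand, was at least 3.79-fold lower in tumors, a call lost without tumor 2 (adjusted p = 0.0591), tumor 3 (0.0639), normal 1 (0.0509) or normal 2 (0.0574).

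Among the ligands that rose in both, Alcam, the other Cd6 ligand, had log2 changes of 1.52 in resistant tumors and 1.72 in tumors, with signals of 748, 633 and 467 in resistant tumors, 749.99, 693 and 639.8 in tumors and 246, 206 and 184 in normal thymus. Given as the change in resistant tumors and then in tumors, the galectins Lgals9 (0.82 and 0.87) and Lgals3 (1.37 and 1.19), Cd72 (1.21 and 0.84), listed as a Cd5 ligand, and Nectin2 (2.06 and 1.02), a ligand of Cd226, were also higher. Of these the tumor calls of Lgals3, Cd72 and Nectin2 were lost without single arrays. For Lgals3 these were tumor 2 (adjusted p = 0.091), tumor 3 (0.0977), normal 1 (0.0944) and normal 2 (0.052), and in resistant tumors normal 1 (0.0513). For Cd72 it was normal 3 (0.0536), and for Nectin2 resistant tumor 2 (0.0619), tumor 1 (0.123), tumor 2 (0.0615), tumor 3 (0.0658), normal 2 (0.148) and normal 3 (0.129).

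Of 39 intracellular partners of the receptors, 36 were tested: 5 were higher, 16 lower and 15 not called in resistant tumors (median log2 change -0.21), and 5 were higher, 15 lower and 16 not called in tumors (median -0.30). The shares over all tested genes were 23.1% higher and 20.2% lower in resistant tumors, and 23.3% and 19.1% in tumors. Among the lower ones were Fyb, Prkcq and Grap2 in both. Fyb, an adapter between receptor and integrin, had -2.09 in resistant tumors (-1.54 without resistant tumor 1, -2.79 without resistant tumor 3) and -4.25 in tumors. Prkcq, the kinase at the Cd28 contact, had -2.56 in resistant tumors (-1.72 without resistant tumor 2, -3.17 without resistant tumor 3) and -3.67 in tumors. Grap2, an adapter bound by Cd28, had -2.46 in resistant tumors and was at least 3.92-fold lower in tumors. Its fall is a description, since Grap2 passed the filter on low signal only with its normal arrays. Fyb signals were 110.1, 189.8 and 615 in resistant tumors, 52.4, 53.9 and 50.8 in tumors and 1198, 948 and 872 in normal thymus, so the resistant arrays were spread widely between the others. Between resistant tumors and tumors the Fyb log2 change was 2.16 (adjusted p = 0.153), a value named after it was seen. With the resistant tumor change given before the tumor change, Fyn, the kinase bound by Cd2 and Thy1 complexes, rose (1.09 and 1.37), as did Siva1, which binds the Cd27 tail (1.13 and 1.14), Cd2ap, which binds the Cd2 tail (0.43 and 0.69), and Cblb (0.58 and 0.80). Skap2 was called in resistant tumors (0.79) and Pag1 in tumors (0.37). Ptprcap, the CD45-associated protein and also named after its values were seen, had -0.77 in resistant tumors and -0.85 in tumors. In resistant tumors against tumors, 0 genes of these 3 lists or of the T cell markers were called, beside 0.36% of all tested genes.

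**Figure D4:**
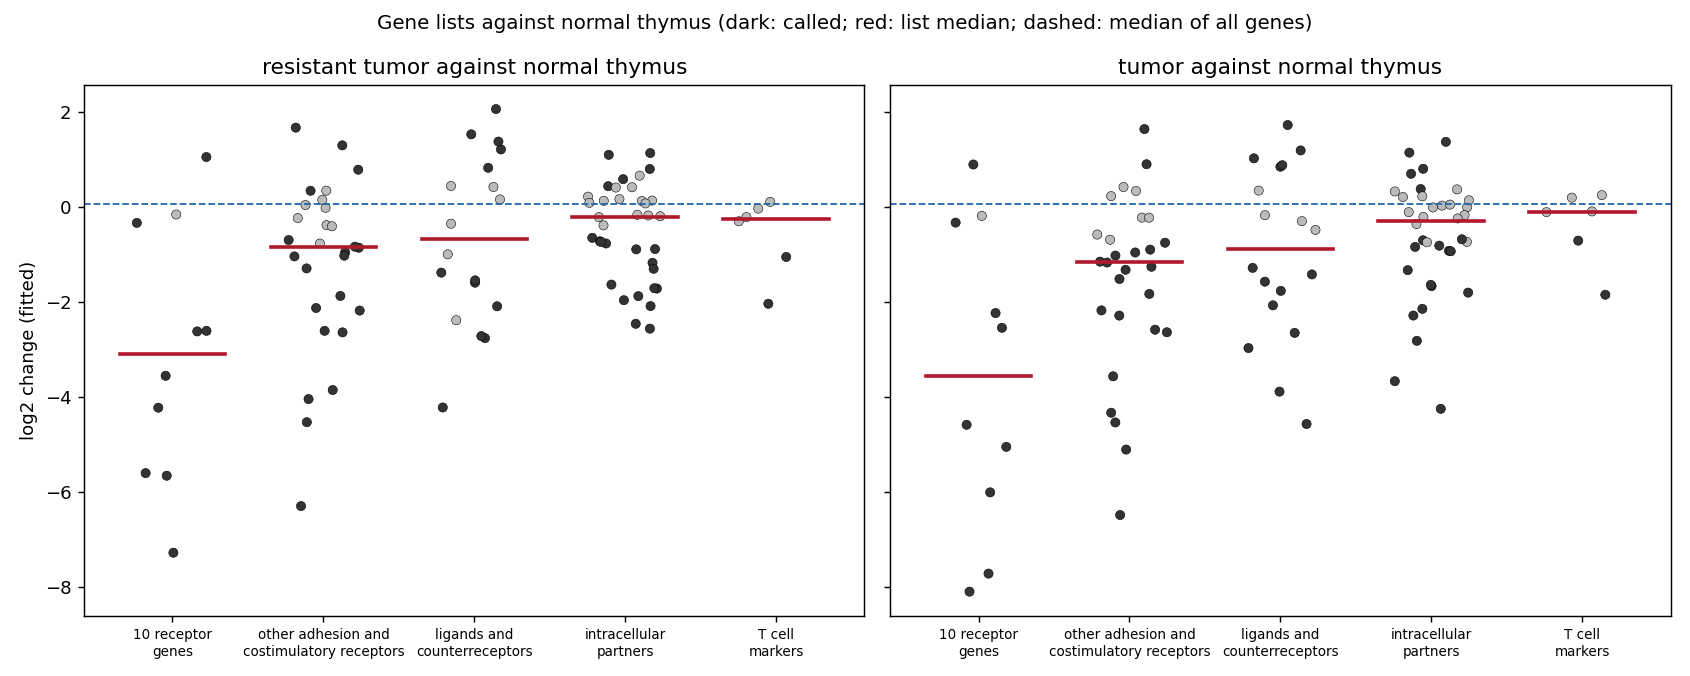
Log2 change against normal thymus of each tested gene of the receptor, ligand, partner and T cell marker lists beside the 10 members, for resistant tumors and for tumors. Dark points were called, red bars are list medians and the dashed line is the median of all tested genes. The member medians of -3.09 and -3.57 lie lowest of the lists drawn. This rank is a description, since Cd2, Cd6, Cd28 and Icos passed the filter only with their normal arrays.

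Markers of thymic epithelial and dendritic cells were mostly lower in both tumor groups, and those of B cells in tumors. A marker under the array median on all 6 tumor arrays entered the test only through normal thymus, so that its direction was fixed by the filter. Krt8, Prss16 and Blk, under it on all 3 arrays of the tumor group, also passed the filter only with normal arrays. The counts of lower markers include all of these and are a description. Over all tested genes, 23.1% were higher and 20.2% lower in resistant tumors, and 23.3% and 19.1% in tumors. Thymic epithelial markers had a summed signal of 154 to 258 in resistant tumors, 126 to 326 in tumors and 5235 to 5498 in normal thymus, with 7 of 8 lower in resistant tumors and 8 of 8 lower in tumors, and Foxn1 and Psmb11 did not reach the array median on any of the 6 tumor arrays. Dendritic cell markers had 344 to 547 in resistant tumors, 292 to 419 in tumors and 4138 to 4426 in normal thymus, with 4 of 6 lower in resistant tumors and 6 of 6 in tumors, and Ccr7, Flt3 and Siglech were under the array median in both tumor groups. B cell markers had 65.1 to 108 in resistant tumors, 25.6 to 98.7 in tumors and 280.2 to 295 in normal thymus, with 1 of 5 lower in resistant tumors and 5 of 5 lower in tumors, and Cd79a, Cd79b and Ms4a1 were under the array median in both. Macrophage markers had 1447 to 2733 in resistant tumors, 1339 to 2383 in tumors and 2097 to 2615 in normal thymus, with 1 of 8 lower in each tumor group. Endothelial markers had 463 to 765 in resistant tumors, 434 to 629.8 in tumors and 318 to 337 in normal thymus, with 4 of 6 higher and 1 lower in each tumor group. Emcn, 1 of the 4, was under the array median on all normal arrays and passed the filter only with tumor arrays, so its rise is a description. The 2 NK cell markers tested, Gzma and Nkg7, had a sum of 2409 to 3544 in resistant tumors, 1148 to 2045 in tumors and 826 to 869 in normal thymus, Gzma being higher and Nkg7 lower in both. B cells, NK cells and dendritic cells also make several of the receptors, and the part of these cells in the receptor changes was not tested.

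The gene most like each receptor over the 9 arrays was found by the smallest root mean square distance between log2 profiles, each centred on its own mean, among 11257 genes. For the receptors with large changes these were Ccr9 for Cd2 (0.91), Slamf1 for Cd5 (0.34), Hpgd for Cd6 (0.82), Ifi209 for Cd28 (0.37), H2-Eb1 for Icos (0.27), Stx11 for Cd69 (0.25) and Pde4d for Cd27 (0.16). For those with small changes they were Ints10 for Thy1 (0.08), Card19 for Cd44 (0.06) and Dera for Ptprc (0.05). Cd2 and Cd6 were under the array median on every tumor array of either kind, with some values set to 1. Their distances and correlations thus rest partly on dim signals. The Pearson correlation of log2 signal over the 9 arrays, which share their group means, was 0.99 between Cd5 and Cd6, 0.95 between Cd28 and Icos, and -0.93 between Cd28 and Cd44. Some pairs on different chromosomes were as high, with 0.99 between Cd5 and Icos and 0.98 between Cd6 and Icos.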

How the data were processed

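The labels' protocols describe total RNA extracted with Trizol, labelled as biotinylated cRNA and hybridised to Affymetrix arrays. The authors deposited MAS5 signal intensities on a linear scale for each array, per the submitters' processing notes. Its version and scaling target are not given there. The 64 control rows entered no test, and those of tumor 1 stood in another order.

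Intensities under 1 were set to 1 and taken to log2 with no further normalization. Probe sets that reached the array's median on 3 or more of the 9 arrays were kept, and the brightest stood for its gene. Groups were compared in limma 3.58.1 (R 4.3.3) with a mean per group, an intensity trend and Benjamini-Hochberg adjustment over 11671 genes, two-sided. The code was tested on simulated data. Precision is limited by 3 arrays a group. Where none of a group's 3 arrays reached its median, the gene has only a bound there, computed from the higher of that median and its own signal. Genes have 1 symbol in the platform table, where 932 probe sets have several and 9160 are unlisted.

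The members, gene lists and tests were chosen with earlier results of these data known. Every member is named. From each list, up to 3 called genes with the largest change in a comparison, genes that account for a count of 5 or fewer, and the nearest gene to each member are named, and others are said to be chosen after their values were seen. Alternatives changed the normalization, offset, filter, trend, probe set rule, blocks, array weights and arrays used.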

Additional observations from a re-analysis of the deposited data

How the results depend on the processing

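Cd2, Cd5, Cd6, Cd27, Cd28, Cd69 and Icos kept their direction and their call against normal thymus under all 21 alternatives in both comparisons. Cd44, Thy1 and Ptprc kept their direction there, but their calls changed under some alternatives. For Cd2, Cd6, Cd28 and Icos, which passed the filter only with their normal arrays, this is a description, since most alternatives tested the same genes. Where a setting leaves a group 1 array, as within the array sets, that array is assumed to vary like the other groups. Cd44 was not called in tumors with probe sets averaged (0.77, adjusted p = 0.0616). It was also not called there within the arrays without spike-in signal, where 1 tumor array stands against 1 normal array. Thy1 lost its call in 9 of 21 alternatives in resistant tumors and 8 in tumors, and Ptprc gained one in 2 and 4. Members called numbered 7 to 10 in resistant tumors and 7 to 10 in tumors across settings, and 8 to 9 in each on leaving out 1 array. Between resistant tumors and tumors, 4 members were called with array weights, whose estimation did not converge (Cd5, Cd6 and Icos higher, Cd27 lower). So were 3236 of 11671 tested genes, and Cd6 was under the array median in both groups. Members were also called within the arrays with spike-in signal, where resistant tumor 3 stands alone, as given above. Under the other alternatives, 0 members were called.

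Changes of resistant tumors against tumors that turned sign were Ptprc at -0.021 after quantile normalization, -0.22 with array medians set equal, -0.015 within the arrays with spike-in signal and -0.052 with array weights. Cd44 was -0.092 with medians set equal and -0.052 with array weights. Thy1 was 0.017 with the spike-in sets blocked and 0.15 within the arrays without spike-in signal. Within the arrays with it, Cd28 was -0.41 and Cd69 was 0.80. On leaving out 1 array, the ranges were -0.028 to 0.063 for Ptprc, -0.13 to 0.39 for Cd44, -0.10 to 0.042 for Thy1, -0.10 to 0.94 for Cd28 and -0.47 to 0.34 for Cd69. Against normal thymus, Cd3d in tumors was 0.088 with medians set equal, 0.0039 within the arrays with spike-in signal and 0.025 with weights. Lat in tumors was 0.073 with medians set equal, Cd3g in resistant tumors was -0.029 after quantile normalization, and Cd3e in resistant tumors was 0.25 with array weights and -0.19 to 0.11 on leaving out 1 array. The cause was not tested.

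Genes called in resistant tumors against normal thymus, in tumors against normal thymus and in resistant tumors against tumors numbered 2015, 2256 and 18 with array medians set equal, 3069, 2117 and 1 within the arrays without spike-in signal, and 8415, 7557 and 3236 with array weights. The last count was also 22 with no filter, 23 with the stricter filter, 27 with probe sets averaged, 143 with the spike-in block, 553 within the arrays with spike-in signal, and 8 to 70 on leaving out 1 array. With equal array medians the median gene had a change of -0.26 between resistant tumors and tumors and of 0.24 in tumors against normal thymus, beside -0.02 and 0.05 as deposited. Same-numbered arrays did not deviate together throughout, with correlations of -0.34 to 0.65, so the numbers were not taken as pairs. With the replicate block, 9 members were called in resistant tumors, 9 in tumors and 0 between them, as without it, and 92 genes differed between resistant tumors and tumors.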
